A study of Equus caballus with 28 samples.

Results

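eca-miR-101, the horse form of the microRNA miR-101, was 1 of the 690 known mature miRNAs counted in this study, or 1 of 844 rows when the 154 predicted miRNAs are included. It was taken by name, as the only row for miR-101 with any letter or arm suffix. No measured value entered that rule, though the choice was made with earlier results of these data known. The row held 12689 reads, and a read was found in 28 of 28 libraries.

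The study sequenced small RNAs of Warmblood mares on day 13 after ovulation, in the days when a horse embryo has to make its presence known to the uterus. Each mare went through a pregnant cycle and a cyclic control cycle in random order, so that the mare served as its own control. In both cycles ovulation was induced with hCG. In the pregnant cycle the mare was inseminated with fresh semen of 1 stallion, and in the cyclic one it was not bred. The 6 groups were cyclic endometrium (4 biopsies), pregnant endometrium (5 biopsies), uterine fluid (UF) of cyclic mares (4), UF of pregnant mares (5), embryonic tissue without its capsule (5) and the yolk sac (YS) fluid of the same embryos (5). UF was taken up by a tampon, which was rinsed with water and centrifuged, and the supernatant was kept. How far shed cells remained in it was not measured. Replicates are mares, replicate 5 had a pregnant cycle only in these libraries, and every embryo had the same sire. Fluids were extracted with another kit than tissues, so tissue and extraction cannot be told apart wherever a fluid is set against a tissue.

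miRNAs are short RNAs that pair with messenger RNAs and lower their translation or stability. miR-101 is known as a regulator of PTGS2 (cyclooxygenase 2), the rate-limiting enzyme of prostaglandin synthesis, and was tied to that gene in mouse uterus around implantation together with miR-199a-3p. It is also known for pairing with the mRNA of EZH2, a histone methyltransferase. In the cyclic mare, endometrial PTGS2 feeds the release of prostaglandin F2α that ends the life of the corpus luteum, and pregnancy holds this release back. PTGS2 itself is not among the values analysed here, so what follows are levels of miRNAs. The RefSeq gene table of another horse assembly lists 2 gene copies of miR-101. MIR101-1 has AK4 and JAK1 as protein-coding neighbours, and MIR101-2 lies within the span of RCL1, between AK3 and JAK2. Reads of the copies cannot be told apart in 1 mature row.

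Levels are given as CPM, the reads of miR-101 scaled to the total of miRNA reads in the same library. Library totals were between 280065 and 590593 miRNA reads in pregnant endometrium, 61836 and 371630 in cyclic endometrium, 62087 and 226308 in cyclic UF, 79173 and 152860 in pregnant UF, 28204 and 44768 in embryos, and 4352 and 14531 in YS fluid. Marker miRNAs bore out the labels. The summed level of 8 embryo rows (miR-302a to d, miR-367 and the miR-371 and miR-372 rows) ran from 12020.0 to 65295 CPM in embryos and from 34891 to 264130 CPM in YS fluid, and was at most 9.97 CPM in endometrium and 32.2 CPM in UF. The 5 rows for stroma and smooth muscle (miR-143, miR-145, miR-199a and miR-214) summed to between 12110.0 and 45569 CPM in endometrium and to at most 5532 CPM in any other group.

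miR-101 was highest in the endometrium and lowest in YS fluid. Its mean was 4238 ± 2004 CPM in pregnant endometrium (SD, n = 5), 3249 ± 633 in cyclic endometrium (n = 4), 1437 ± 714 in embryos (n = 5), 1284 ± 403 in pregnant UF (n = 5), 797 ± 432 in cyclic UF (n = 4) and 485 ± 509 in YS fluid (n = 5). Ranked by CPM within a library among the known miRNAs, it stood between place 23 and 39 in endometrium, 43 and 75 in UF, 46 and 73 in embryos, and 60 and 115 in YS fluid.

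In cyclic endometrium the 4 libraries held 2749, 3614, 3953 and 2679.7 CPM (replicates 1 to 4), from 170, 1088, 1469 and 746 reads. In pregnant endometrium the 5 libraries held 2999.9, 2956, 4004, 3488.5 and 7740.1 CPM, from 1032, 999, 2365, 977 and 2229 reads. The 2 groups overlapped. Of the pregnant biopsies, replicate 3 lay just above the range of the cyclic ones and replicate 5 far above it. The biopsy of replicate 5 also had the highest summed stromal markers of its group (45569 CPM against 12110.0 to 18617 CPM in the other 4) and the highest miR-126 rows, which mark endothelium (4816 CPM against 1598 to 2735 CPM). Their part in its miR-101 level was not tested. Without replicate 5, pregnant endometrium averaged 3362 ± 492 CPM (n = 4).

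In cyclic UF the 4 libraries held 752, 1330.0, 274 and 831 CPM, from 131, 301, 17 and 162 reads. Replicate 3 stood lowest. It was also the shallowest UF library, with 62087 reads in all and 167 known miRNAs found. In pregnant UF the 5 libraries held 661, 1498, 1537, 1627 and 1099 CPM, from 89, 179, 235, 135 and 87 reads. Replicates 1 and 5 of the pregnant mares lay inside the range of the cyclic fluids, and every UF library lay below every endometrial library.

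In embryos miR-101 stood at 355, 1519, 1768, 2286 and 1256 CPM, from 10, 68, 64, 66 and 52 reads. Embryo replicate 1 was the low one. It also had the lowest summed embryo markers (12020.0 CPM), and without it the mean was 1707 ± 439 CPM (n = 4). All 5 embryos lay below all 9 endometrial biopsies, and 2 of them (replicates 2 and 5) fell within the range of pregnant UF.

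YS fluid rested on few reads. The 5 libraries held 3, 3, 4, 6 and 2 reads of miR-101, or 396, 208, 306, 1379 and 138 CPM. The lowest, replicate 5, was below the level that 3 reads would give in that library (206 CPM). Replicate 4 came from the shallowest library of all (4352 reads), and its 6 reads allow any level between 506 and 2998 CPM (95% exact Clopper-Pearson interval, which here and below covers counting error only, since amplified reads without molecular identifiers are not independent molecules). Pooled over the 5 fluids, 18 of 53989 reads gave 333 CPM with an interval of 198 to 527 CPM.

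**Figure D1:**
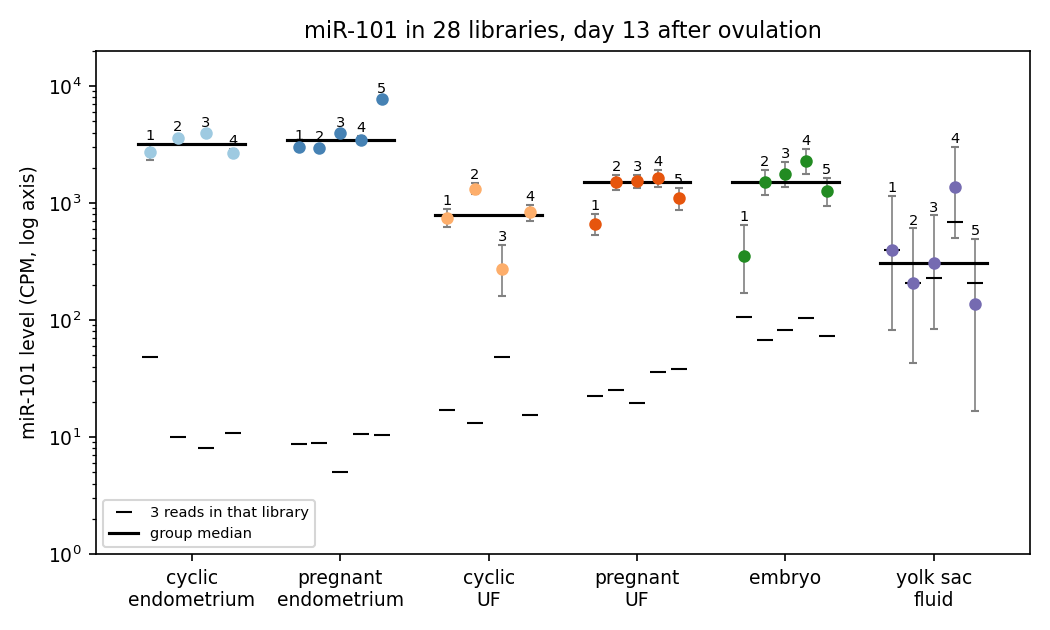
miR-101 in each library (points, CPM on a log axis; numbers are replicates), with 95% Clopper-Pearson intervals, the group median (bar) and the level of 3 reads in that library (dash). Endometrial libraries lie between 2679.7 and 7740.1 CPM, above all others, and the YS fluid points lie near the level of 3 reads.

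Counting error was small beside the spread between mares except in YS fluid. The coefficient of variation of CPM was 47.3% in pregnant endometrium, where counting alone would give 2.66%. The same pair of values was 19.5% and 4.26% in cyclic endometrium, 54.3% and 8.62% in cyclic UF, and 31.4% and 8.60% in pregnant UF. In embryos it was 49.7% and 14.1%, and in YS fluid 105% and 59.5%.

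Read down the order of group means, neighbouring groups mostly did not separate. Exact two-sided permutation tests on log2 CPM, with p-values adjusted over the 12 pairs of groups compared, gave p = 0.625 for pregnant against cyclic endometrium (adjusted p = 0.682) and p = 0.0159 for embryo against cyclic endometrium (adjusted p = 0.0476, the smallest p that 5 against 4 libraries allow being 0.0159). Embryo against pregnant UF gave p = 1.0 in the exact permutation test, with means that differed by 0.0015 on the log2 scale. Pregnant against cyclic UF gave an exact sign-flip p = 0.375 (adjusted p = 0.45) and YS fluid against cyclic UF an exact permutation p = 0.238 (adjusted p = 0.357). The 1 step in this order that passed the adjusted threshold was the one between endometrium and embryo.

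The first question of the study was what pregnancy changed within the uterus, and miR-101 did not pass the test there. In the endometrium, pregnant over cyclic ratios of CPM were 1.09, 0.818, 1.01 and 1.30 in replicates 1 to 4. Thus 3 mares were higher and 1 lower when pregnant. The counting intervals excluded equality in replicate 2 (0.750 to 0.892) and in replicate 4 (1.18 to 1.43), in opposite directions. The edgeR quasi-likelihood fit with TMM scaling and the mare as a block put the change at 0.29 on the log2 scale (SE 0.24, FDR = 0.778), and 3.37% of the 386 miRNAs tested were called at FDR of at most 0.05 and a fold of at least 2, with 0 of them lower. Replicate 5 has no cyclic library, so its high biopsy does not bear on this value. Without the block, where it does, the change was 0.64 (SE 0.33, edgeR FDR = 0.435). An exact sign-flip test over the 4 mares cannot go below p = 0.125.

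In UF the ratios were 0.879, 1.13, 5.61 and 1.96, again 3 mares higher and 1 lower when pregnant. The counting intervals of replicates 1 (0.664 to 1.16) and 2 (0.931 to 1.36) included equality, while those of replicates 3 (3.43 to 9.80) and 4 (1.55 to 2.47) did not. The edgeR fit gave 0.89 on the log2 scale (SE 0.43, unadjusted p = 0.0387, FDR = 0.365), which was not called, beside 4.92% of 305 miRNAs called (1.31% higher and 3.61% lower). The value leaned on replicate 3, whose cyclic library held 17 reads of miR-101 and stood apart in other rows too. Its 6 epithelial rows summed to 50510.0 CPM against 91650.0 to 97730.0 CPM in the other cyclic fluids, miR-16 was at 2529 CPM against 9369 to 11017 CPM, and miR-26a at 38188 CPM against 62369 to 74902 CPM. Without that mare it was 0.45 (SE 0.33, edgeR FDR = 0.649). The test of whether pregnancy moved miR-101 differently in UF and endometrium gave a difference of 0.48 (SE 0.46, edgeR FDR = 0.987), beside 1.69% of 415 miRNAs called.

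**Figure D2:**
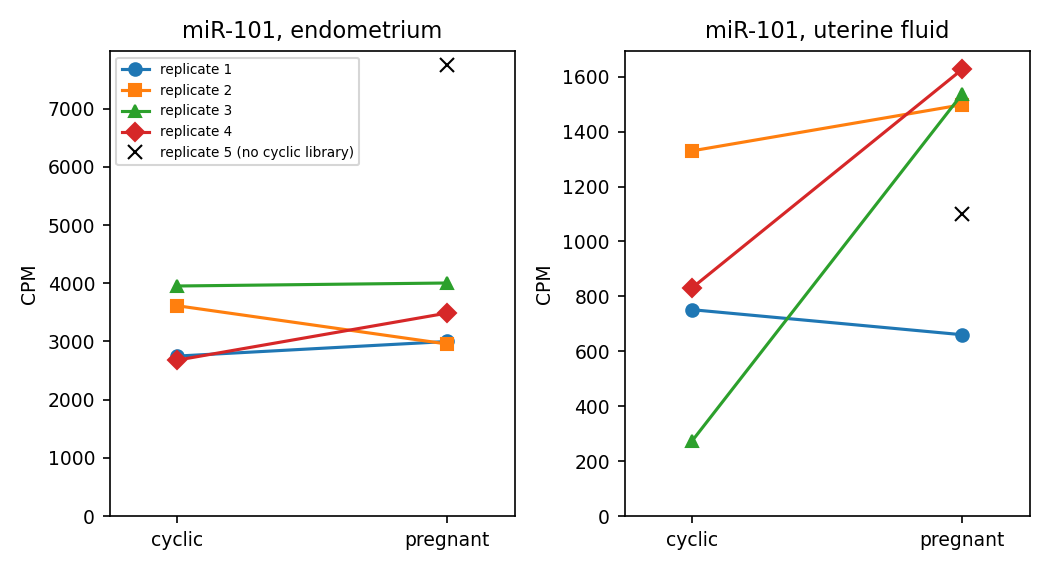
miR-101 level (CPM, axes from 0) in the cyclic and the pregnant cycle of the same mare (lines), for endometrium (left) and uterine fluid (right). Replicate 5 (cross) has a pregnant library only; in each compartment 3 of 4 lines go up, and in UF replicate 3 rises most, by a ratio of 5.61.

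The second question was how the tissues and fluids on both sides of the embryo and the mother differ. Against the endometrium miR-101 was lower in UF, in both cycles and in every mare. In pregnant mares the UF held 22, 50.7, 38.4, 46.6 and 14.2% of the endometrial CPM of the same mare (replicates 1 to 5). In cyclic mares it held 27.3, 36.8, 6.93 and 31.0% (replicates 1 to 4). The edgeR fold was 3.57 lower in pregnant UF (log2 fold change -1.83 or, relative to the median of all miRNAs tested, -1.72, SE 0.35, FDR = 0.00104). It was 4.81 lower in cyclic UF (-2.27, relative to the median -2.02, SE 0.43, FDR = 0.000978). The share of miRNAs called was 33.7% of 359 in pregnant mares (13.6% higher and 20.1% lower) and 30.8% of 328 in cyclic mares (18.9% lower). The miR-126 rows summed to at most 316 CPM in UF and to at least 1598 CPM in endometrium, while the 6 epithelial rows (the miR-200 family and miR-205) summed to between 50510.0 and 97730.0 CPM in UF and between 49244 and 72098 CPM in endometrium. Whether the cell types behind these markers have a part in the miR-101 difference was not tested. The groups did not overlap, and the exact permutation p took its smallest possible value in both. The permutation p was 0.00794 for 5 against 5 libraries (adjusted p = 0.0318) and 0.0286 for 4 against 4 (adjusted p = 0.0571). This test, here and in the other comparisons between compartments, moved group labels freely over libraries although the groups share mares. A permutation that kept the mares paired was not run.

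In embryos miR-101 was lower than in the endometrium of the mare that carried them, at 11.8, 51.4, 44.1, 65.5 and 16.2% of its CPM. These tissues were extracted with the same kits. The edgeR fold was 7.31 lower (log2 fold change -2.87, SE 0.47, FDR = 0.00024), in a comparison where 71.3% of 359 miRNAs were called (42.6% lower and 28.7% higher). The median miRNA stood at -1.02 on this scale, and miR-101 at -1.84 relative to it. The exact permutation test on plain log2 CPM, which gives a ratio 3.23 lower, had p = 0.00794 (adjusted p = 0.0318). Stromal, endothelial and blood cell markers were lower in embryos as well. The 5 white blood cell rows summed to at most 193 CPM there and to at least 1956 CPM in endometrium, and miR-142-3p and miR-150 were at 0 in embryos. The 3 red blood cell rows summed to at most 314 CPM against at least 2670.3 CPM, with miR-144 at 0. The 6 epithelial rows were higher, at 93710.0 to 131810.0 CPM in embryos against 49244 to 72098 CPM in endometrium. In bulk samples fewer cells of a type and less RNA per cell cannot be told apart, and the part of these cells in the miR-101 difference was not tested.

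YS fluid was below the endometrium in 5 of 5 mares, at 13.2, 7.02, 7.64, 39.5 and 1.78% of its CPM, with log2 fold change -5.47 (SE 0.64, edgeR FDR = 3.0e-06), or -4.64 relative to the median of all miRNAs. Here 53.1% of 341 miRNAs were called (35.2% lower). On plain CPM the ratio was 11.5 lower, with an exact permutation p = 0.00794 (adjusted p = 0.0318), and without replicate 4 the mean of the fluids was 262 ± 113 CPM (n = 4). Other cell markers were lower in YS fluid too. The white blood cell rows summed to at most 919 CPM there, with 4 of 5 rows at 0, the red blood cell rows to at most 1379 CPM and the miR-126 rows to at most 460 CPM, where endometrium had at least 1956, 2670.3 and 1598 CPM. Their part in the miR-101 difference was not tested. YS fluid was also below pregnant UF in 5 of 5 mares, though the counting intervals of replicates 1 (0.121 to 1.81) and 4 (0.306 to 1.89) included equality. The log2 fold change was -3.48 (SE 0.54, edgeR FDR = 4.8e-05), beside 59.2% of 277 miRNAs called (35.7% lower). Relative to the median of all miRNAs this was -2.94. Its size moved with the scaling, to -2.74 with RLE and -1.68 with library totals, both still called, and the ratio on plain CPM was 3.56 lower. There the groups overlapped through YS replicate 4, and the exact permutation test on log2 CPM gave p = 0.0238 (adjusted p = 0.0571).

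Embryos held more miR-101 than the YS fluid inside them in 4 of 5 conceptuses, by CPM ratios of 0.896, 7.32, 5.77, 1.66 and 9.12 (replicates 1 to 5). The counting intervals of replicates 1 (0.231 to 5.07) and 4 (0.723 to 4.68) included equality. The edgeR fit gave 2.38 on the log2 scale (SE 0.73, FDR = 0.0301), beside 35.1% of 259 miRNAs called (22% higher), and 2.10 relative to the median. The exact permutation p on log2 CPM was 0.0476 (adjusted p = 0.0816), so this difference did not pass on the plain scale. The call was also lost without replicate 2, 3 or 5 (2.17, 2.31 and 2.22 on the log2 scale) and with library totals (1.68).

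Embryo against pregnant UF turned on the scaling. As shares of all miRNA reads, the embryo over UF ratios were 0.537, 1.01, 1.15, 1.41 and 1.14 in replicates 1 to 5. The counting interval excluded equality in replicate 4 (1.03 to 1.90) and included it in the other 4. After TMM scaling miR-101 was called lower in embryos (log2 fold change -1.37, SE 0.51, edgeR FDR = 0.0318), beside 68.4% of 310 miRNAs called (38.7% lower and 29.7% higher). With library totals in place of TMM factors it was 0.16 (SE 0.48, edgeR FDR = 0.766), and with RLE size factors -0.69 and not called. The call was lost as well when any 1 replicate was left out, with values from -1.46 without replicate 4 to -0.88 without replicate 1. Computed over all 28 libraries together, TMM factors were 1.31 to 2.16 in embryos and 1.66 to 4.29 in YS fluid. In the endometrial and UF libraries they were 0.511 to 0.869. The fit of embryos and pregnant UF had factors of its own, which are not given here. A change from TMM to library totals moved the median miRNA by 1.42 in this comparison. Relative to the median of all miRNAs tested miR-101 stood at -1.14 with TMM. A scaling factor moves every miRNA of a library alike, so this distance stays nearly the same under RLE or library totals by construction. It does depend on which miRNAs are tested, and was -0.57 with no filter on low counts and -0.46 with known miRNAs only.

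The scaling also set the size of the other differences with the conceptus. Against pregnant endometrium the median moved by 1.28 in embryos and 1.99 in YS fluid when TMM was replaced by library totals, and miR-101 then stood at -1.56 in embryos and -3.45 in YS fluid, both still called by edgeR. Among known miRNAs only, its distance from the median was -1.16 in embryos and -3.99 in YS fluid. The calls of all miRNAs split by direction changed as well. In embryos against endometrium 103 miRNAs were called higher and 153 lower with TMM, and 140 higher and 94 lower with library totals. For YS fluid against endometrium the split went from 61 higher and 120 lower to 119 and 59. For embryo against UF it went from 92 and 120 to 146 and 85, for YS fluid against UF from 65 and 99 to 114 and 53, and for embryo against YS fluid from 57 and 34 to 40 and 55.

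**Figure D3:**
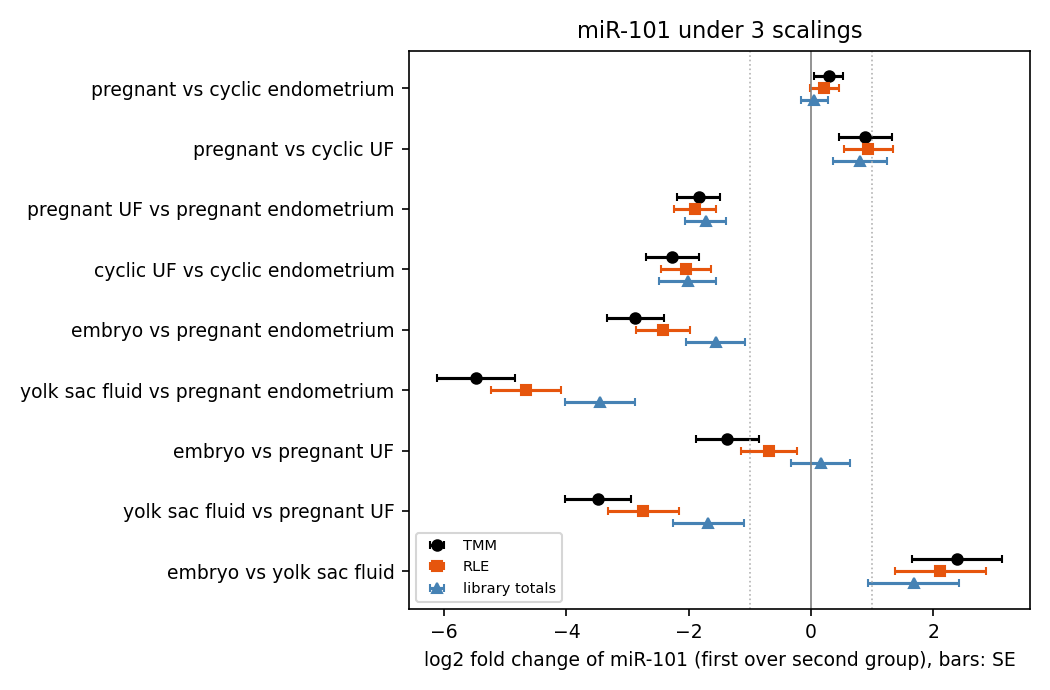
Log2 fold change of miR-101 (x axis, first over second group, bars are standard errors) in 9 comparisons under TMM, RLE and library-total scaling; dotted lines mark a 2-fold change. The 4 comparisons with endometrium of another compartment lie left of the dotted line at every scaling, and embryo against pregnant UF runs from -1.37 to 0.16.

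A ratio of 2 miRNAs within a library needs no scaling. miR-26a, the known miRNA whose profile over the libraries was nearest to that of miR-101, served as the denominator, a choice made after the values were seen. Division by it removes by construction whatever change the pair share. miR-26a was itself lower in YS fluid (38537 CPM against 85309 CPM in pregnant endometrium, edgeR log2 fold change -3.15) and, with TMM, in embryos (-1.53), so smaller ratios there do not check the differences given above. There were 3.98 ± 1.01 reads of miR-101 per 100 reads of miR-26a in cyclic endometrium (SD, n = 4) and 4.85 ± 1.65 in pregnant endometrium (n = 5). The ratio was 1.22 ± 0.45 in cyclic UF (n = 4), 1.54 ± 0.36 in pregnant UF (n = 5), 1.82 ± 0.48 in embryos (n = 5) and 1.15 ± 1.00 in YS fluid (n = 5). The endometrial libraries did not overlap with those of UF or embryos. Against pregnant endometrium the exact permutation p was 0.00794 for pregnant UF, embryos and YS fluid (adjusted p = 0.0318 for each). Embryo against pregnant UF gave an exact permutation p = 0.405. Pregnant over cyclic ratios in UF averaged 0.44 on the log2 scale, with an exact sign-flip p = 0.125, the smallest that 4 mares allow.

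**Figure D4:**
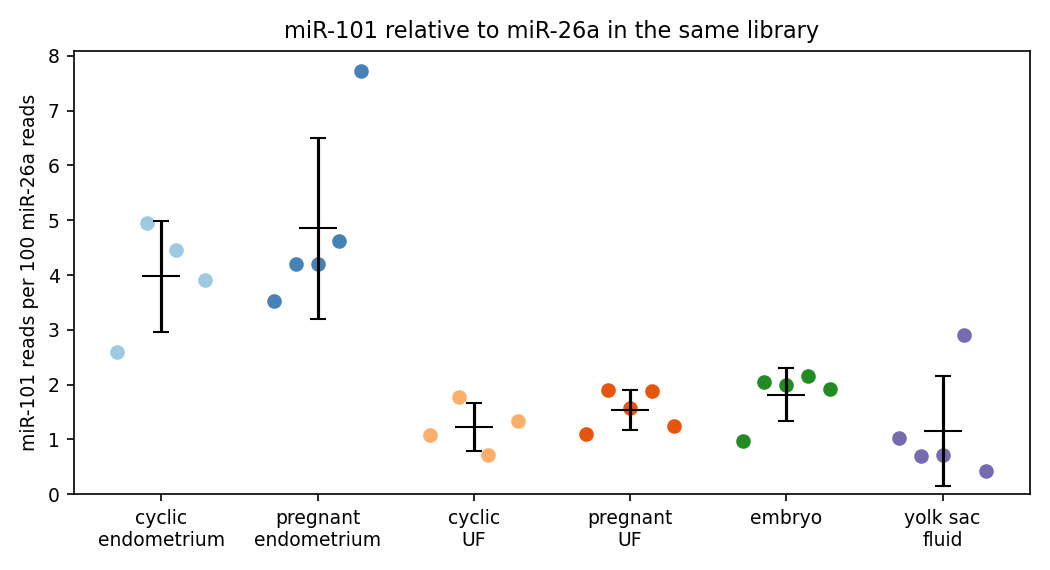
Reads of miR-101 per 100 reads of miR-26a in each library (points), with the group mean and SD (bars). Endometrial libraries lie between 2.60 and 7.72, and UF and embryo libraries between 0.717 and 2.16.

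miR-101 was then set beside 7 other miRNAs that published work in other species ties to PTGS2 mRNA, of 8 named (miR-26b has no row of its own). These were miR-199a-3p and miR-199b-3p, miR-26a, miR-146a, miR-16, miR-144 and miR-542-3p. The rows of miR-199a-3p and miR-199b-3p were identical in 19 of 28 libraries and differed by at most 11 reads, so they are close to 1 measurement. miR-199a-3p stands also among the stromal markers and miR-144 among those of red blood cells.

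None of them passed the main test between pregnant and cyclic. In endometrium 0 of 7 were called by edgeR or by DESeq2, beside 3.37% of all miRNAs (edgeR), and 1 had an unadjusted p under 0.05. The median was -0.03 beside 0.08 over all miRNAs tested and -0.03 over the known ones. The 1 was miR-144, at 69.6 ± 75.8 CPM in cyclic endometrium (n = 4) and 28.3 ± 16.6 CPM in pregnant endometrium (n = 5). Its log2 fold change was -1.34 (SE 0.59, edgeR FDR = 0.223), and cyclic replicate 1 held 0 reads of it. The study's own analysis reported miR-144 as lower in pregnant than in cyclic endometrium, a call that was not reached here. In UF 0 of 6 tested were called by either tool, beside 4.92% of all, and 0 had an unadjusted p under 0.05. The median was 0.06 beside 0.00 over all and -0.0037 over known miRNAs. At such shares of calls few or none would be called in any list of this size, so these counts say little about the list.

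Against pregnant endometrium the list was lower in embryos, where 5 of 7 fell and 1 rose past the test, beside 42.6% of all miRNAs lower and 28.7% higher. edgeR also called miR-144 lower, but it had 0 reads in embryos, and set at 3 reads over the group it was at least 1.69-fold lower, short of the fold of 2 that a call needs. The list's median log2 fold change was -5.62 (-1.02 over all and -1.73 over known miRNAs). That median falls on miR-144, whose fitted fold has no firm size. On ratios of mean CPM, with miR-144 set at 3 reads over the group, the list's median was -1.28. With library totals, the scale of plain CPM, the edgeR median over all miRNAs tested was 0.30. Of the 5, miR-26a (-0.20) and miR-542-3p (-1.08) were not called with library totals. miR-199a-3p and miR-199b-3p, close to 1 measurement, are both among them. miR-146a and miR-542-3p passed the low-count filter only through the endometrium, which favours a lower call. miR-199a-3p, long known from mesenchymal cells, averaged 7995 ± 2121 CPM in pregnant endometrium (n = 5) and 222 ± 111 CPM in embryos (n = 5, log2 fold change -6.51, SE 0.43, edgeR FDR = 2.1e-07). miR-146a, which dampens inflammatory signalling, averaged 434 ± 190 CPM in pregnant endometrium (n = 5) and was read in 1 of 5 embryos, with 2 reads. The 1 that rose was miR-16, which restrains the cell cycle, at 8640 ± 1011 CPM in pregnant endometrium (n = 5) and 71915 ± 25307 CPM in embryos (n = 5, log2 fold change 1.70, SE 0.24, edgeR FDR = 8.3e-05). miR-101 was thus lower in embryos by less than miR-199a-3p, -2.87 against -6.51 on the log2 scale; the difference between the 2 changes was not tested.

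In YS fluid 5 of 7 list members fell and 0 rose, beside 35.2% of all miRNAs lower. edgeR also called miR-144 lower, but with 0 reads there, and that call was lost with DESeq2, RLE, library totals and without replicate 5. The list's median of -5.50, beside -0.84 over all and -1.44 over known miRNAs, falls on miR-144. On ratios of mean CPM, with miR-146a at its bound and miR-144 left out, the median was -2.74 (6 members). The edgeR median over all miRNAs tested, predicted ones included, was 1.16 with library totals, and the one over known miRNAs is not given. Of the 5, miR-542-3p, with 1 read in YS fluid, was not called with library totals. It and miR-146a passed the low-count filter only through the endometrium, which favours a lower call. miR-146a had 0 of 53989 reads there. A count of 3 reads would be 55.6 CPM, so it was at least 7.81-fold lower than in pregnant endometrium. For miR-144 the level of 3 reads lies above its endometrial mean, so no fold can be given. In UF 4 of 7 members fell in pregnant mares (median -2.91 beside -0.12, or -0.43 over known miRNAs, 20.1% of all lower). In cyclic mares 3 of 6 did (median -2.27 beside -0.24, or -0.44 over known miRNAs, 18.9% of all lower), with 0 higher in each. Both counts hold miR-199a-3p and miR-199b-3p, close to 1 measurement. The rest were miR-542-3p (2 reads in pregnant UF, 4 in cyclic UF) and, in pregnant mares, miR-144 (1 read). They passed the low-count filter only through the endometrium, which favours a lower call. With filterByExpr 2 were called in pregnant mares. miR-199a-3p averaged 1214 ± 941 CPM in pregnant UF (n = 5, log2 fold change against endometrium -2.91, SE 0.59, edgeR FDR = 0.00135) and 586 ± 447 CPM in cyclic UF (n = 4, -4.14, SE 0.48, edgeR FDR = 1.2e-05). miR-26a was not called lower in UF of either cycle, at 82266 ± 13954 CPM in pregnant UF (n = 5) and 85309 ± 12617 CPM in pregnant endometrium (n = 5).

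Of the comparisons inside the conceptus and against UF, 4 of 5 tested members fell and 1 rose in embryos against pregnant UF (median -3.92 beside -0.23, or -0.86 over known miRNAs, 38.7% of all lower). In YS fluid against pregnant UF 4 of 5 fell and 0 rose (median -3.12 beside -0.54, or -0.82 over known miRNAs, 35.7% of all lower). In both comparisons miR-199a-3p and miR-199b-3p, close to 1 measurement, are among those that fell, and miR-199b-3p sets the median. miR-146a, with 2 reads in embryos and 0 in YS fluid, passed the low-count filter only through UF. On ratios of mean CPM, with miR-146a at its bound and miR-542-3p included, the list's median in YS fluid against UF was -1.11 over 6 members. With library totals the edgeR median over all miRNAs tested, predicted ones included, was 1.13 there, and the one over known miRNAs is not given. In embryos against YS fluid 2 of 4 rose and 0 fell (median 0.54 beside 0.28, or 0.07 over known miRNAs, 22% of all higher), and miR-26a was not called there with library totals (0.95). With library totals miR-26a (-0.15) was not called lower in embryos than in UF either, nor was miR-199a-3p lower in YS fluid than in UF (-1.34).

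**Figure D5:**
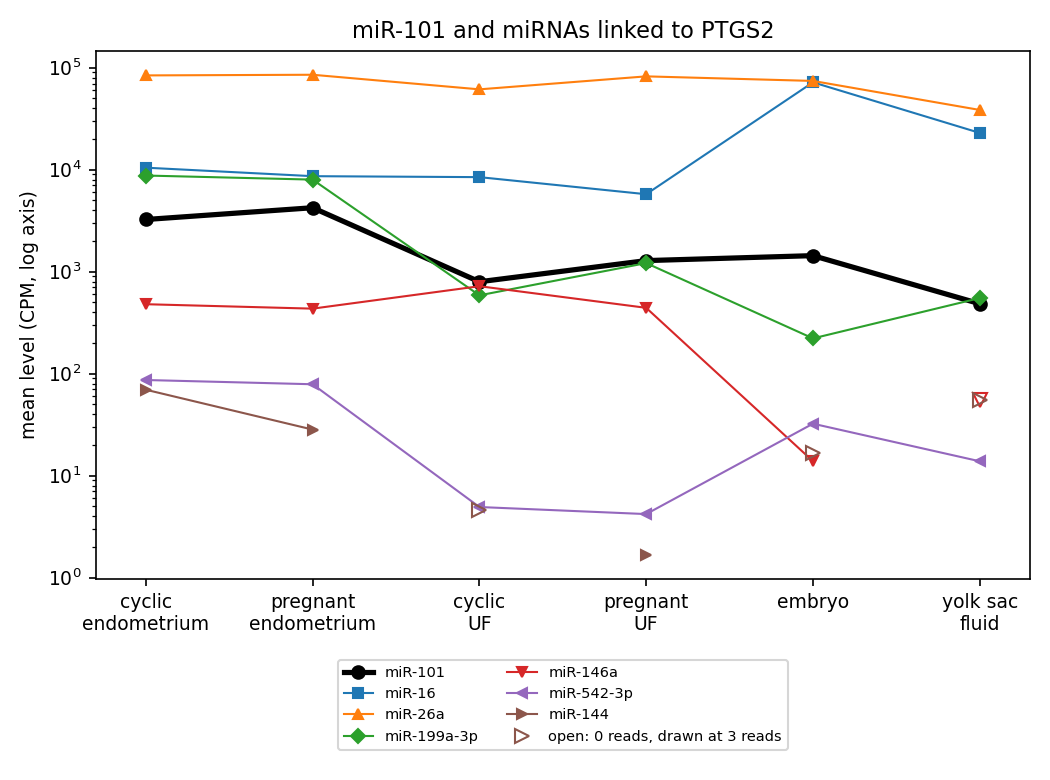
Mean level per group (CPM, log axis) of miR-101 (thick line) and 6 miRNAs linked to PTGS2; open symbols mark groups with 0 reads, drawn at the level of 3 reads over the group. miR-101 and miR-199a-3p are highest in endometrium, at 4238 and 7995 CPM in pregnant mares, while miR-16 is highest in embryos, at 71915 CPM.

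The known miRNAs nearest to miR-101 in profile were found among the 150 with a mean of at least 100 CPM, by the root mean square difference of log2 CPM over the 28 libraries after each was centred on its own mean. They were miR-26a (0.99), miR-141 (1.00), miR-1388 (1.12), miR-21 (1.15) and miR-27b (1.20), where the median over the 150 was 2.00. The points share their library and its depth, and the values describe these libraries. miR-141, an epithelial miRNA, averaged 7584 CPM in pregnant endometrium, 5400 CPM in pregnant UF, 3893 CPM in embryos and 780 CPM in YS fluid. miR-27b, in contrast, was at 22281 CPM in pregnant endometrium and 24748 CPM in pregnant UF, and at 4085 CPM in embryos and 2969 CPM in YS fluid. With a minimum of 500 CPM 4 of these 5 remained among the nearest 5 of 96, and when ranked by Pearson correlation only miR-26a (r = 0.86, n = 28 libraries) did.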

How the data were processed

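Small RNA libraries were prepared by the authors from 100 ng total RNA with 18 PCR cycles and sequenced as single reads. Per the methods, adapters and short or low-quality reads were removed with cutadapt 1.11, and known and predicted miRNAs were counted with miRPro against miRBase and EquCab2.0. The deposited values are raw counts per mature miRNA; a further table of predicted precursors repeats the predicted mature counts and was not used. Comparisons were made with edgeR 4.0.16 in R 4.3.3 (TMM, quasi-likelihood test). Known and predicted miRNAs entered a fit jointly if they reached 1 CPM in a number of libraries equal to the size of the smaller group, and were called at FDR of at most 0.05 and a fold of at least 2. Pregnant and cyclic libraries were compared with mare as a block, since each mare was its own control. The deviations of libraries with the same number correlated at 0.151 in endometrium and 0.262 in UF on average, against -0.0387 and -0.0657 for other numbers. Interaction fits used mare within compartment. Single values were compared on log2 CPM, pregnant against cyclic by exact sign flips over mares and other groups by exact permutation of group labels. The label permutations left out that libraries share mares. All p-values measure the spread between these libraries. The comparisons share libraries, among them the pregnant endometrium. Named were miR-101, the PTGS2-linked list and the 5 miRNAs nearest in profile; the members and lists were chosen with earlier results of these data known. Mature sequences, and hence miRNAs sharing the seed of miR-101, were not analysed here. Fits were tested on data simulated for pregnant against cyclic endometrium and embryo against pregnant endometrium. Few miRNAs were changed there, as many raised as lowered, with no mare effect. That setting differs from the comparisons with the conceptus, where many miRNAs were called, so it gives no assurance for them. Alternatives were DESeq2 1.42.0, the likelihood ratio test, other scalings and filters, block or none, all libraries in one fit, known miRNAs only and leaving out each replicate. TMMwsp, TMM factors from filtered miRNAs and the ratio to miR-26a were added after seeing the data.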

Additional observations from a re-analysis of the deposited data

Results flagged for a closer look

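Of 44 sets of values (miR-101 and the 7 listed miRNAs, each within a group of 4 or 5 libraries and not all at 0), 6 held 1 library that stood far from the rest by Dixon's criterion. Chance gives about 1 in 20 for continuous values. Where all other libraries are at 0, any read is flagged by construction, so 6 of 44 cannot be read as an excess. miR-101 in pregnant endometrium stood at 7740.1 CPM in replicate 5, from 2229 reads, while the others lay between 2956 and 4004 CPM. In YS fluid replicate 4 it stood at 1379 CPM from 6 reads, with the others between 138 and 396 CPM. The remaining 4 rest on 1 to 6 reads each: miR-146a in embryo replicate 4 (69.3 CPM, 2 reads, the others at 0), miR-144 in pregnant UF replicate 2 (8.37 CPM, 1 read, the others at 0), miR-542-3p in embryo replicate 2 (134 CPM, 6 reads, the others at most 27.6 CPM) and miR-542-3p in YS fluid replicate 2 (69.2 CPM, 1 read, the others at 0).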

How the results depend on the processing

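miR-101 stayed lower and called in pregnant UF, embryos and YS fluid against pregnant endometrium, and in YS fluid against pregnant UF, under 16 of 16 alternatives of the edgeR or DESeq2 fit each, and in cyclic UF against cyclic endometrium under 15 of 15. It stayed uncalled for pregnant against cyclic in endometrium (0.06 to 0.64), UF (0.45 to 1.23) and their difference (0.11 to 1.17). Embryo against pregnant UF (-1.37) was called in 3 of 14 alternatives, those added after seeing the data left aside. It was -0.68 with DESeq2, -0.69 with RLE, -0.86 with filterByExpr, -0.88 with known miRNAs only, -1.05 with no filter, -1.10 with TMMwsp, -0.86 with TMM factors from miRNAs kept by filterByExpr and -1.46 to -0.88 without a replicate, and turned to 0.16 with library totals and 0.22 per read of miR-26a. Embryo against YS fluid (2.38) was not called with TMM factors from filterByExpr (1.91), with library totals (1.68) or per read of miR-26a (0.95). It was also not called without replicate 2, 3 or 5, with values from 2.17 to 2.90 when any replicate was left out. Per read of miR-26a, cyclic UF against cyclic endometrium (-1.73) and YS fluid against pregnant UF (-0.73) did not pass the adjusted threshold. The cause was not tested.

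Without the mare as a block the pregnancy change was 0.64 in endometrium, 0.78 in UF and 0.14 for their difference, none called. With the mare as a block, pregnant UF (-1.80), cyclic UF (-2.27), embryo (-2.98) and YS fluid (-5.48) against endometrium, embryo (-1.48) and YS fluid (-3.53) against UF, and embryo against YS fluid (2.46) changed no call of miR-101.

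Counts of called miRNAs moved more. The 13 calls of pregnancy in endometrium were 0 with no block or all 28 libraries in one fit, 3 with filterByExpr and 2 with known miRNAs only. The 15 in UF were 0 with no block, with filterByExpr or with TMM factors from it, 2 in the fit of all libraries, 3 with known miRNAs only, and 26, 7, 3 and 3 without replicates 1 to 4. The 7 for their difference were 0 with no block, in the fit of all libraries, with known miRNAs only or without replicate 3, 20 without replicate 1 and 15 without replicate 2. filterByExpr gave 140 for embryo against endometrium, 75 for pregnant UF against endometrium, 49 higher and 52 lower for embryo against UF, 90 for YS fluid against UF, and 40 for embryo against YS fluid, which had 140 in the fit of all libraries, 54 with the block, and 46, 48 and 40 without replicates 2, 4 and 5. Of 487 values of single PTGS2-linked miRNAs under alternatives, 472 kept their call, 15 lost it and 0 turned. Only miRNAs called in the main fit entered, and those that an alternative filter removed were not counted as lost. miR-199a-3p and miR-199b-3p, close to 1 measurement, were counted separately. The list's calls went from 2 to 1 for embryo against YS fluid with library totals, from 4 to 2 for pregnant UF against endometrium with filterByExpr, and from 0 to 1 for pregnancy in endometrium without replicate 1. Depth limits YS fluid most, with at most 6 reads of miR-101 in a library.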
